A study of Mus musculus with 10 samples.

Results

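Cytosolic ribosomal protein genes encode the proteins that, together with ribosomal RNA, build the ribosome that translates nuclear messages. The small subunit reads the message and the large subunit joins the amino acids. A cell needs the proteins in near equal numbers, and their messages are short and abundant in most tissues. Skeletal muscle is known for a paralog, Rpl3l, which is made in heart and skeletal muscle and takes the place of Rpl3, a large subunit protein that reaches towards the peptidyl transferase center. These genes were examined in the gastrocnemius, a calf muscle, of mice with and without desmin, the main intermediate filament protein of muscle fibers. The methods of the paper name this muscle alone, whereas a figure legend and the discussion name the plantaris as well. The members were the protein-coding genes whose symbol is Rpl, Rps or Rplp followed by a number and at most one further letter (a, l or x), and whose mean value over the 10 mice was at least log2(10). The table of 54232 genes held 78 such genes by name, besides 1 that the rule leaves out. Of these, 75 reached the limit and were tested among 14289 genes in all. The other 3 were Rpl24 with a mean of 3.03, of whose transcript windows 81.7% recur in other genes, Rpl39l with 1.61, and Rpl10l, which was listed at 0 in every mouse. The 75 members encode 45 proteins of the large and 30 of the small subunit and lie on 19 chromosomes.

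RNA-seq was done on 5 homozygous desmin knock-out mice (Des -/-) and 5 wild-type mice (Des wt/wt), all of the strain B6J.129Sv-Destm1Cba/Cscl and 3 months old. The allele is a constitutive null that removes desmin from all tissues, and no further allele or agent is given in the labels of either genotype. The methods speak of muscles pooled by genotype, whereas the table has 10 columns, 1 per mouse, each taken as 1 replicate. Values are regularized log (rlog) values on the log2 scale. They adjust for library size and pull each gene in towards its own mean, so that differences are smaller than log2 fold changes of counts. Des itself, whose loss checks the labels, was between 11.76 and 11.89 in desmin knock-out mice and between 16.10 and 17.74 in wild-type mice. The muscle fiber markers Acta1, Ckm and Mylpf were present in all mice. The sum of 8 muscle fiber markers was 22.12 to 22.30 (log2) in desmin knock-out and 22.28 to 23.30 in wild-type mice.

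One wild-type library, that of mouse 3, stood apart in these genes, among others, and is described before any comparison. It had the highest value of all 10 mice in 75 of the 75 members. It lay above the mean of the 4 other wild-type mice by a median of 0.80 on the log2 scale, with a range from 0.33 for the least to 1.19 for the most shifted member. Over all 14289 tested genes the same median was 0.00008. It was 0.37 over the 648 other protein-coding genes with a transcript under 1 kb, and 0.47 over 77 mitochondrial ribosomal protein genes. Des itself was 1.46 above the other wild-type mice in this mouse. It also had the highest sum among wild-type mice for markers of muscle fibers (23.30), slow fibers (15.26), satellite cells (11.40), endothelium (12.57), erythroid cells (13.37) and adipocytes (9.55), the lowest for fibroblasts (13.45) and macrophages (11.38), and the lowest mean of Y-linked transcripts of all mice (9.52). Wild-type mouse 4 lay in the same direction to a smaller degree. Its median deviation from the members' means over 10 mice was 0.18, compared with 0.74 in mouse 3. Its mean of Y-linked transcripts (9.88) was the lowest after that of mouse 3. The part of these shifts in the results was not tested. Differences between the genotypes are given with and without mouse 3, and mouse 4 is kept in both.

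Promoters of ribosomal protein genes are known to share a few sequence features. A window of 250 bases before to 50 bases after the transcription start was at hand from RefSeq (GRCm38.p6) for 55 of the 75 members. The core of the binding motif of ETS factors, CGGAAG on either strand, stood in 37 of these 55 windows (67.3%), compared with 17.2% of 27025 windows of all genes. A pyrimidine tract of a C followed by at least 7 further C or T, on the strand of the gene and within 50 bases of the start, stood in 47 of the 55 (85.5%) and in 28.7% of all windows. A tract at the very start of the message places it under the control of mTOR signaling. The matches counted here may also lie before the start or further into the gene, so the shares are not those of messages that begin with a tract. These are matches of letters, not shown sites. The windows of all genes include genes that were not tested here, and no share over the tested genes was computed. The stretches from 120 bases before to 25 after the start are shown for the muscle paralog Rpl3l (chr17:24727706-24727850, plus strand), for the abundant members Rplp0 (chr5:115559347-115559491, plus strand) and Rpl4 (chr9:64173267-64173411, plus strand), for Rplp2 of the stalk (chr7:141447531-141447675, plus strand), and for Rpl15, which had the lowest adjusted p (chr14:18270962-18271106, minus strand). Capitals mark the ETS core, either as CGGAAG or, where it lies on the other strand, as CTTCCG.
Rpl3l: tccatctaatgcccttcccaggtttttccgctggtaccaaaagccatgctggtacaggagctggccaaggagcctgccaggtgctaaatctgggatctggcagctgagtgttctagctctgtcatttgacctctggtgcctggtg
Rplp0: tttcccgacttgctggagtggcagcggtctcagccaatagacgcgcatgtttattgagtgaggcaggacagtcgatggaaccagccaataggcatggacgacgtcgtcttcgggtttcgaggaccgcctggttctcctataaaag
Rpl4: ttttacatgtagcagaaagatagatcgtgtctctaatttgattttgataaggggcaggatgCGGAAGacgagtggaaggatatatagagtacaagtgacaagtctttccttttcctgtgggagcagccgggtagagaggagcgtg
Rplp2: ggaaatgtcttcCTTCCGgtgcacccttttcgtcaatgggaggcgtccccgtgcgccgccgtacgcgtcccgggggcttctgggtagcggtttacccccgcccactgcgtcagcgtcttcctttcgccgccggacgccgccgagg
Rpl15: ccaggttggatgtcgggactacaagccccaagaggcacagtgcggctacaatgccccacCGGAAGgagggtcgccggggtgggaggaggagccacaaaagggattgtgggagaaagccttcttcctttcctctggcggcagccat
Neither the Rpl3l nor the Rplp0 window held the ETS core, and the 3 others did.

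The members were among the most abundant genes of the muscle. Their mean values ranged from 7.88 for Rpl13a to 14.89 for Rplp0, with a median of 12.90, compared with 8.54 over all tested genes. A mean above 12 was reached by 60 members, and 69 were in the top 10% of the tested genes. The 3 highest were Rplp0 (14.89), Rpl4 (14.88) and Rpl3l (14.44), and the 3 lowest were Rpl13a (7.88), Rpl3 (10.94) and Rps28 (11.01). These values are not corrected for transcript length. Per kb of transcript the highest were Rplp1 (15.21), Rps29 (14.82) and Rps15 (14.72), with Rpl3l at 13.98 and Rps28 at 12.20. The reference transcripts of the members were short, with a median of 886 bases against 3046 bases over all tested protein-coding genes. Of the 75 members 47 had one under 1 kb, compared with 5.44% of the tested protein-coding genes. The loci of 28 members hold 53 snoRNA genes, small RNAs that guide the modification of ribosomal RNA and that an mRNA library is not made to hold.

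Most members have processed pseudogenes, copies of the message in the genome, and the treatment of reads that match several genes is not given in the sources used here. Of the 50-base windows of each reference transcript, a median of 51.3% was found unchanged in a transcript of another gene, and in 38 members it was over 50%. The share was 0 in Rpl3l, 85.6% in Rpl3, whose windows recur in 26 pseudogenes, and 98.6% in Rps27. Levels per kb of transcript, the scale on which genes can be set beside each other, ran from 7.81 in Rpl13a to 15.21 in Rplp1. Over the 75 members the level per kb and the share of recurring windows had a Spearman correlation of 0.066. Both rest on 1 reference transcript per gene, which was as long as 5179 bases for Rps15a and 3706 for Rps20. With another transcript of a gene, its level per kb and its share could differ. For members with a high share the level is uncertain, because reads may be assigned to a copy or dropped.

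**Figure D1:**
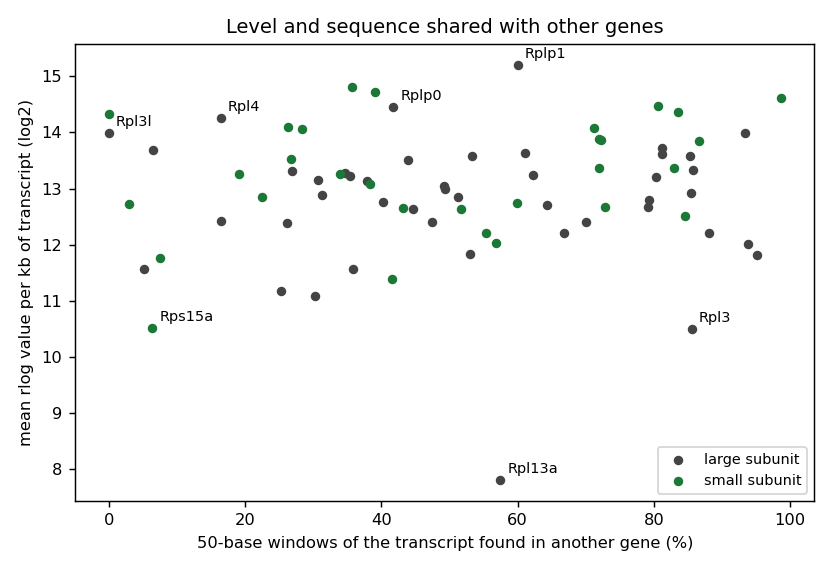
Each point is 1 of the 75 members, with the percent of its 50-base transcript windows found in another gene on the horizontal axis and its mean rlog value per kb of transcript (log2) on the vertical axis. Rpl13a is lowest at 7.81 and Rplp1 highest at 15.21, and Rpl3l (13.98, no shared window) and Rpl3 (10.50, 85.6% shared) lie far apart on both axes.

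The members moved together from mouse to mouse. For this, the mean of each genotype was first taken off the values of each member. Over the 2775 pairs of members the median Pearson correlation of these deviations across the 10 mice was 0.912. Without wild-type mouse 3, with the means taken anew, it was 0.782. The 10 mice share their scaling in these values, and the correlations are given as a description. No such correlation was computed for other sets of genes, so it is not shown to be particular to the members. Wild-type mouse 3 alone held 56.9% of the squared deviation of the members from their genotype means. Desmin knock-out mouse 1 was at the other end of its genotype, as the lowest knock-out mouse in 66 of 75 members, with a median of 0.23 below the 4 other knock-out mice. Wild-type mouse 2 was the lowest wild-type mouse in 60 members. Both mice were also low outside the members. Against group mates, the other protein-coding genes under 1 kb had medians of -0.15 in desmin knock-out mouse 1 and -0.20 in wild-type mouse 2. For mitochondrial ribosomal protein genes these medians were -0.10 and -0.14. The median SD of a member was 0.132 in desmin knock-out mice and 0.419 in wild-type mice, and 0.198 in wild-type mice without mouse 3, compared with 0.127 and 0.246 over all tested genes. After the rlog values were turned back to a linear scale and summed over genes, the members made up 1.47% to 1.72% of the sum in desmin knock-out mice and 1.35% to 1.89% in wild-type mice, with the 1.89% in mouse 3.

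**Figure D2:**
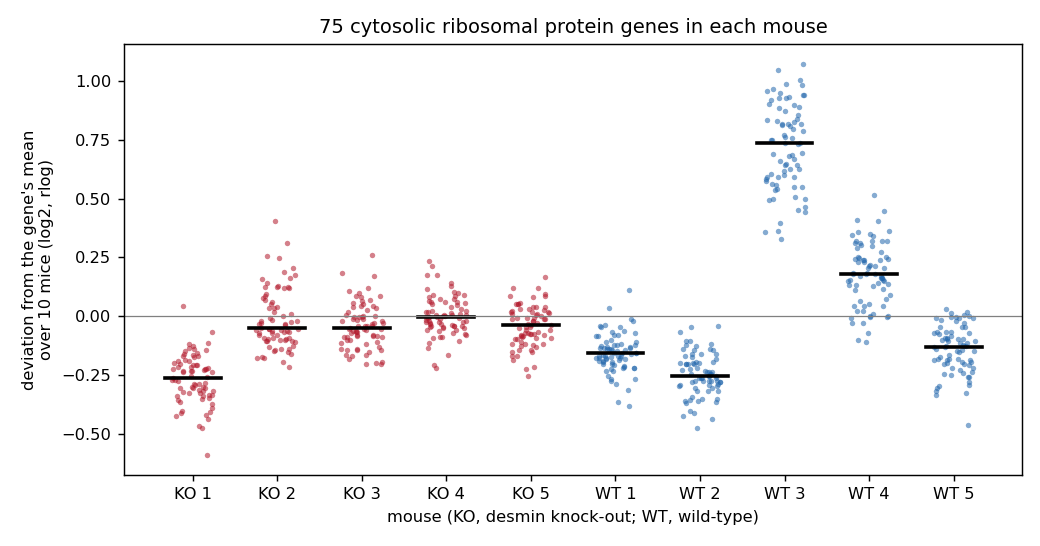
Points show the 75 members in each mouse as the deviation of the rlog value (log2) from the mean of that gene over 10 mice, and black lines are the medians. All 75 points of wild-type mouse 3 lie above 0, between 0.33 and 1.08, and the medians of desmin knock-out mouse 1 (-0.26) and wild-type mouse 2 (-0.25) are lowest.

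The comparison of desmin knock-out with wild-type mice asked whether genes of the ribosome differ in muscle without desmin. No member passed the test in either direction (limma, Benjamini-Hochberg adjusted p under 0.05 over 14289 genes), whereas of all tested genes 7.7% were called higher without desmin and 5.99% lower. No member had an unadjusted p under 0.05 either, compared with 3948 of the 14289 tested genes. The lowest adjusted p was 0.202 (Rpl15, a large subunit protein, with a difference of -0.26, or -0.15 without wild-type mouse 3). In 0 of 75 members the genotypes did not overlap, compared with 14.4% of all tested genes. The difference between the genotypes, knock-out minus wild-type, had a median of -0.16 over the members and -0.003 over all tested genes, and 68 members had the lower mean in desmin knock-out mice and 7 the higher. All 95% intervals of the differences lay within -0.78 and 0.49. Because wild-type mouse 3 is part of the wild-type mean in each, the 75 directions are not separate observations.

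Without wild-type mouse 3 the median difference was 0.015, and 34 members had the lower and 41 the higher mean in desmin knock-out mice. The 95% intervals then lay within -0.41 and 0.54. In this fit 1 of 75 members was higher in desmin knock-out mice (limma, adjusted p under 0.05), compared with 9.34% of all tested genes, and none was lower. This member was Rpl3. With sample weights, limma gave wild-type mouse 3 a weight of 0.100 and wild-type mouse 4 one of 0.275. Desmin knock-out mice 4 and 5 had weights of 4.21 and 3.22, and wild-type mice 1 and 2 had 1.77 and 2.19. No other mouse had more than 1.02, so this fit leans on a few mice of each genotype. In it the median was 0.11 and 8 members were higher, compared with 14.6% of all tested genes. They were Rpl3 with a difference of 0.41 and an adjusted p of 0.0011 by limma, and Rpl41, Rps12, Rps27l, Rpl36a, Rpl39, Rpl35a and Rpl21 with differences from 0.20 to 0.36.

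**Figure D3:**
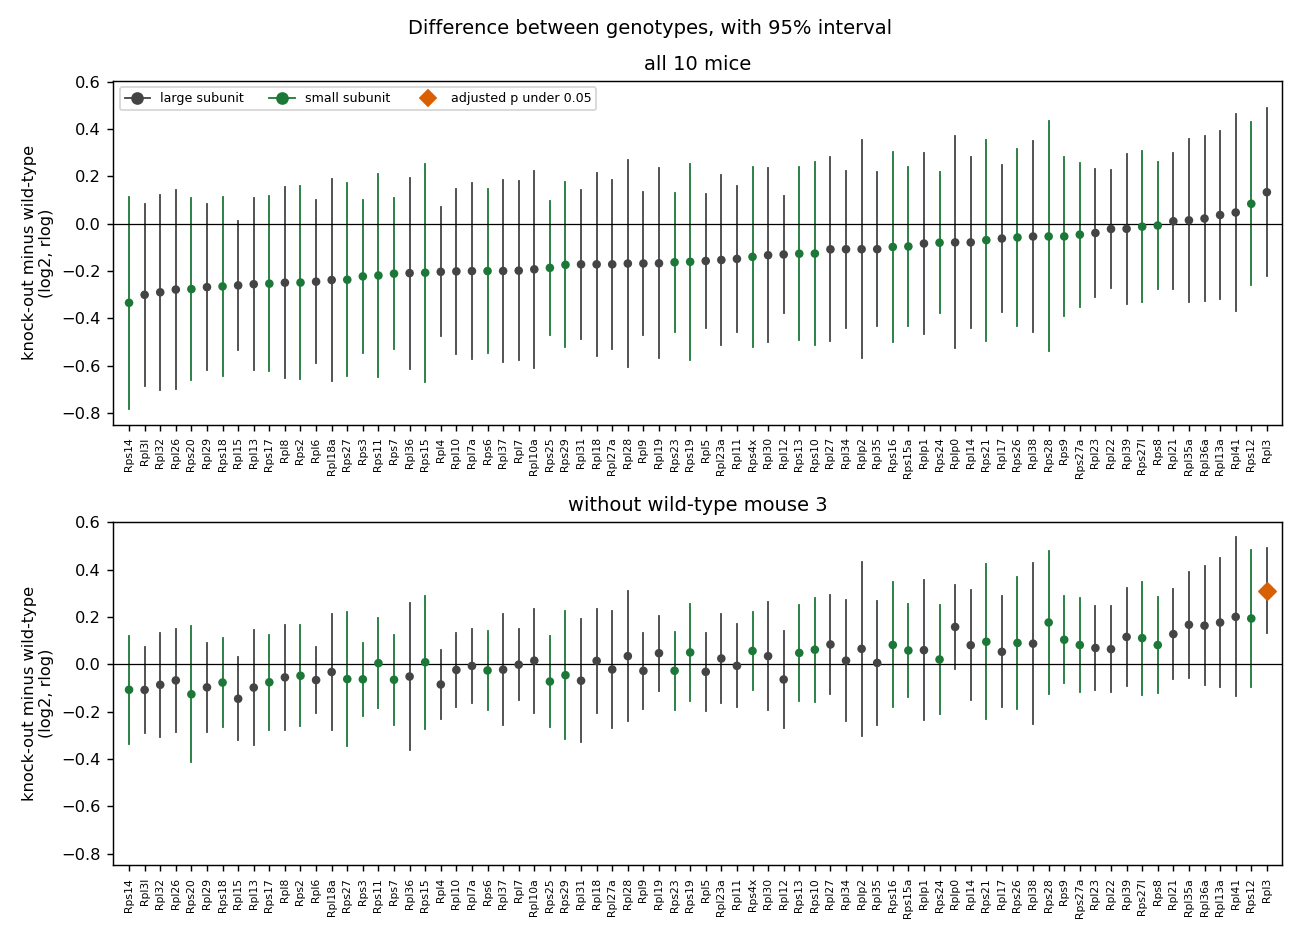
Dots are the differences of the members, apart from 1 that is not shown, between desmin knock-out and wild-type mice (log2, rlog) and lines their 95% intervals by limma, with all 10 mice above and without wild-type mouse 3 below, in the same order of genes. With all mice the intervals of the members shown include 0, and without this mouse Rpl3 (0.31, diamond) has an adjusted p under 0.05.

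Among proteins of the small subunit, 14 belong to the head, which closes over the messenger RNA, and 16 to the body and platform. The head genes had a median difference of -0.18 and the body genes of -0.13. Without wild-type mouse 3 these medians were -0.01 and 0.03. The lowest difference of any member was that of Rps14, a platform protein needed for the maturation of the small subunit RNA. Rps14 had values of 13.28, 13.56, 13.60, 13.65 and 13.58 in desmin knock-out mice and 13.57, 13.46, 14.78, 13.96 and 13.58 in wild-type mice. Wild-type mice 3 and 4, with 14.78 and 13.96, lay above all knock-out values, and the other values of the genotypes overlapped. The difference was -0.33 with an SE of 0.21 and an adjusted p of 0.324 by limma, and -0.11 without wild-type mouse 3. The head gene Rps28, whose protein sits at the exit of the messenger RNA, was among the 3 lowest members by mean value not corrected for length. It was at 10.60, 11.13, 11.20, 10.98 and 11.00 in desmin knock-out and 10.65, 10.64, 11.96, 11.24 and 10.69 in wild-type mice, with a difference of -0.05 (adjusted p of 0.901 by limma). The difference turned to 0.18 without wild-type mouse 3, with an adjusted p of 0.446 by limma.

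In the large subunit, the stalk binds the translation factors that drive each round of elongation, and its 3 genes had a median difference of -0.08. Rplp0, the base of the stalk, was at 14.68, 14.90, 14.82, 14.89 and 14.94 in desmin knock-out mice and at 14.71, 14.68, 15.88, 14.82 and 14.55 in wild-type mice. Wild-type mouse 3 was 1.19 above its group mates, the largest such gap of any member. The difference of Rplp0 was -0.08 with a 95% interval from -0.53 to 0.37, and 0.16 from -0.02 to 0.33 without that mouse (adjusted p of 0.218 by limma). Rplp1 and Rplp2, which form the flexible arms, differed by -0.08 and -0.11 with all mice and by 0.06 and 0.07 without wild-type mouse 3. The desmin knock-out values of Rplp2 spread from 12.50 in mouse 1 to 13.50 in mouse 2, which covers all wild-type values but the 13.84 of mouse 3.

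The 5S particle of Rpl5 and Rpl11, which also restrains Mdm2 and so stabilizes p53, differed by -0.16 and -0.15. Without wild-type mouse 3 the differences were -0.03 and -0.006. The 9 genes whose proteins surround the exit of the nascent chain had a median of -0.11, and the remaining 29 large subunit genes one of -0.17, or 0.05 and -0.007 without that mouse. Rpl4, whose protein lines the tunnel, was at 14.72, 14.78, 14.77, 14.84 and 14.80 in desmin knock-out mice and 14.92, 14.84, 15.46, 14.89 and 14.81 in wild-type mice. The knock-out values lay close together, and all but 1 were below all wild-type values. Its difference was -0.20 with an SE of 0.13 and an adjusted p of 0.323 by limma, and -0.08 without wild-type mouse 3. Rpl13a, which is outside the core of peptide bond formation and known for a role in silencing inflammatory messages, was at 7.69 to 8.13 in desmin knock-out and 7.41 to 8.42 in wild-type mice, with a difference of 0.04, or 0.18 without wild-type mouse 3. Of the members on chromosome 1, the chromosome of Des, Rpl31 lies 36.0 Mb and Rpl7 59.3 Mb from it, with differences of -0.17 and -0.20 and adjusted p-values of 0.478 and 0.494 by limma. They were -0.07 and -0.001 without wild-type mouse 3.

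Rpl3 (ENSMUSG00000060036, chr15:80077791-80091868, minus strand) and Rpl3l (ENSMUSG00000002500, chr17:24727820-24736143, plus strand) have reference transcripts of 1351 and 1375 bases. Their coding sequences of 1212 and 1224 bases were identical at 899 of 1209 aligned bases (74.4%) and shared no window of 50 bases, so that a read of that length matches at most one of both without mismatch. Per kb of transcript Rpl3l had a mean level of 13.98 and Rpl3 of 10.50 on the rlog scale, so that the muscle paralog had the higher level. The level of Rpl3 is uncertain because of its pseudogene copies.

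Rpl3l was at 14.21, 14.39, 14.31, 14.24 and 14.32 in desmin knock-out mice and at 14.34, 14.38, 15.36, 14.63 and 14.26 in wild-type mice. The genotypes overlapped, and the highest value was again that of wild-type mouse 3. The difference was -0.30 with an SE of 0.18, a 95% interval from -0.68 to 0.08 and an adjusted p of 0.299 by limma, and without that mouse -0.11 with an adjusted p of 0.437. Rpl3 was at 10.98, 10.92, 11.02, 11.11 and 10.99 in desmin knock-out mice and at 10.56, 10.54, 11.58, 10.83 and 10.86 in wild-type mice. All 5 knock-out mice were above 4 of the wild-type mice, and wild-type mouse 3 was above all. The difference of Rpl3 was 0.13, the highest of any member, with an SE of 0.16 and an adjusted p of 0.638 by limma. Without wild-type mouse 3 it was 0.31 with an SE of 0.08 and an adjusted p of 0.0206. Centring each mouse on the median of the members, an alternative chosen after seeing the data that moves the median of all genes by 0.14, gave 0.28 with all mice and 0.31 without that mouse, with adjusted p-values of 0.284 and 0.123.

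In the balance within the pair, Rpl3l minus Rpl3 in the same mouse, any factor that scales a whole mouse cancels. It was 3.23, 3.47, 3.29, 3.12 and 3.33 in desmin knock-out mice, with a mean of 3.29 ± 0.13 (SD, n = 5). In wild-type mice it was 3.79, 3.84, 3.78, 3.80 and 3.40, with a mean of 3.72 ± 0.18 (SD, n = 5). Wild-type mouse 3 was at 3.78 and so within its genotype, and mouse 5 was the wild-type mouse that lay among the knock-out values. The difference of -0.43 passed the exact permutation test over the 10 mice (two-sided, exact p = 0.0159, where 0.0079 is the smallest value that 252 relabelings can give). It ranged from -0.51 to -0.29 over the alternatives, with exact permutation p-values from 0.0079 to 0.0238. Rpl3l was thus less in excess of Rpl3 in desmin knock-out mice, although neither gene passed the test on its own with all mice. The pair was chosen with earlier results of these data known, so its p-values are not those of a pair set in advance. The alternatives reuse the same mice.

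**Figure D4:**
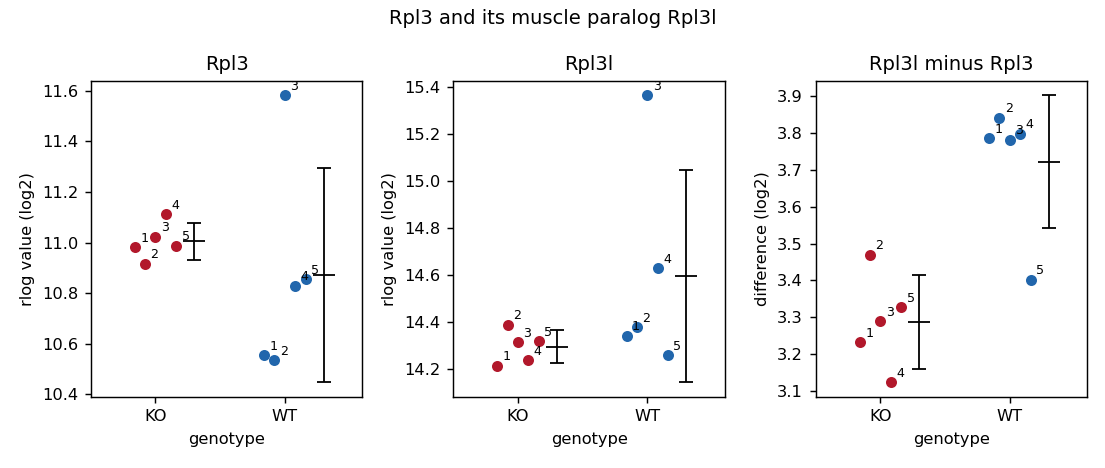
Values of Rpl3, Rpl3l (rlog, log2) and their difference in the 5 desmin knock-out (KO) and 5 wild-type (WT) mice, numbered by mouse, with the mean and SD beside each group. Wild-type mouse 3 is far above its group in both genes (11.58 and 15.36) but not in their difference (3.78), where only wild-type mouse 5 (3.40) lies within the range of the knock-out mice.

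Ribosomal proteins and paralogs whose names the rule does not take were examined as well. Of 9 such genes 8 were tested and 0 passed the test in either direction (limma, adjusted p under 0.05), with 2 at an unadjusted p under 0.05. One of the 8 is not reported by name. Rpsa, Rack1, Fau and Rps3a1, which encode small subunit proteins, differed by -0.17, -0.32, -0.08 and -0.08, and by 0.007, -0.11, 0.13 and 0.08 without wild-type mouse 3. The paralog Rpl22l1 differed by -0.32 (adjusted p of 0.115 by limma), and by -0.24 without that mouse. It was lower with an adjusted p of 0.0148 once GC and length trends were removed. Rpl7l1 and Rps27rt differed by -0.12 and 0.16, or -0.04 and 0.19 without that mouse. The mitochondrial ribosome has its own proteins. Of 77 tested genes for them 0 passed the test in either direction by limma, against 7.7% higher and 5.99% lower of all tested genes. An unadjusted p under 0.05 by limma was reached by 6 of the 77, compared with 3948 of all 14289 tested genes. The median difference of the mitochondrial genes was -0.09, and 0.009 without wild-type mouse 3.

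Genes that make or use ribosomes were taken from 3 lists. The 97 tested genes for ribosome biogenesis cover RNA polymerase I and the nucleolar processing machinery. Here 1 gene (1.03%) was lower and none higher in desmin knock-out mice by limma, against 5.99% and 7.7% of all tested genes. The median difference was -0.04, or -0.01 without wild-type mouse 3. The lower gene was Tcof1, which encodes the nucleolar protein treacle that supports transcription of ribosomal RNA. Tcof1 was between 9.29 and 9.37 in desmin knock-out mice and between 9.65 and 10.32 in wild-type mice, with no overlap. The difference was -0.50 with an SE of 0.12 and an adjusted p of 0.0138 by limma, and -0.38 without wild-type mouse 3. Over the alternatives the adjusted p of Tcof1 ranged from 0.000154 to 0.200, the highest when mice were centred on the median of the members. Ubtf, the factor that holds ribosomal DNA in an active state, differed by -0.004. Without wild-type mouse 3, Rrn3 at -0.23 was also lower and Sbds at 0.21 higher (adjusted p of 0.0416 and 0.0393 by limma), both named after their values were seen.

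Of 44 translation factors 2 (4.55%) were lower and none higher in desmin knock-out mice by limma, against 5.99% and 7.7% of all tested genes. The median difference was -0.08, or -0.01 without wild-type mouse 3. Eif4g1, the scaffold of the cap-binding complex, was at 13.98 to 14.12 in desmin knock-out and 14.24 to 14.50 in wild-type mice, a difference of -0.33 (adjusted p of 0.0261). Eif2s2, a subunit of the factor that brings the initiator tRNA, was at 12.34 to 12.57 and 12.64 to 12.94, a difference of -0.32 (adjusted p of 0.0347). The genotypes did not overlap in either gene, and wild-type mouse 3 was neither the highest in Eif2s2 nor set apart in Eif4g1. Without this mouse 4 genes were called, with Pabpc1 lower at -0.31 and Eef1a1 higher at 0.65 (adjusted p of 0.0166 and 6.4e-05 by limma). Pabpc1 was named after its values were seen. Over the alternatives the adjusted p ranged from 0.000207 to 0.643 for Eif4g1 and from 0.000987 to 0.705 for Eif2s2. With all mice Eef1a1 differed by 0.45 with an adjusted p of 0.111 by limma.

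Eef1a1 and Eef1a2 both encode the elongation factor that carries aminoacyl-tRNA to the ribosome, and Eef1a2 is known as the form of adult muscle and neurons. Eef1a1 was at 13.58, 13.63, 13.54, 13.57 and 13.61 in desmin knock-out mice and at 12.90, 12.85, 13.92, 12.84 and 13.16 in wild-type mice. As in Rpl3, all knock-out mice were above 4 wild-type mice and below mouse 3. Eef1a2 was at 14.72, 15.28, 15.02, 15.32 and 15.29 in desmin knock-out mice and at 15.47, 15.44, 16.55, 15.47 and 15.30 in wild-type mice, a difference of -0.52 with an adjusted p of 0.137 by limma, or -0.30 without mouse 3. Eef1a2 minus Eef1a1 was 1.14, 1.65, 1.48, 1.75 and 1.68 in desmin knock-out mice, a mean of 1.54 ± 0.25 (SD, n = 5). It was 2.58, 2.59, 2.63, 2.63 and 2.14 in wild-type mice, a mean of 2.51 ± 0.21 (SD, n = 5), and the genotypes did not overlap. The difference was -0.97, or -0.95 without wild-type mouse 3 (exact permutation test, two-sided, p = 0.0079, the smallest value it can give). This second pair was chosen after its values were seen, so its p describes and does not test.

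**Figure D5:**
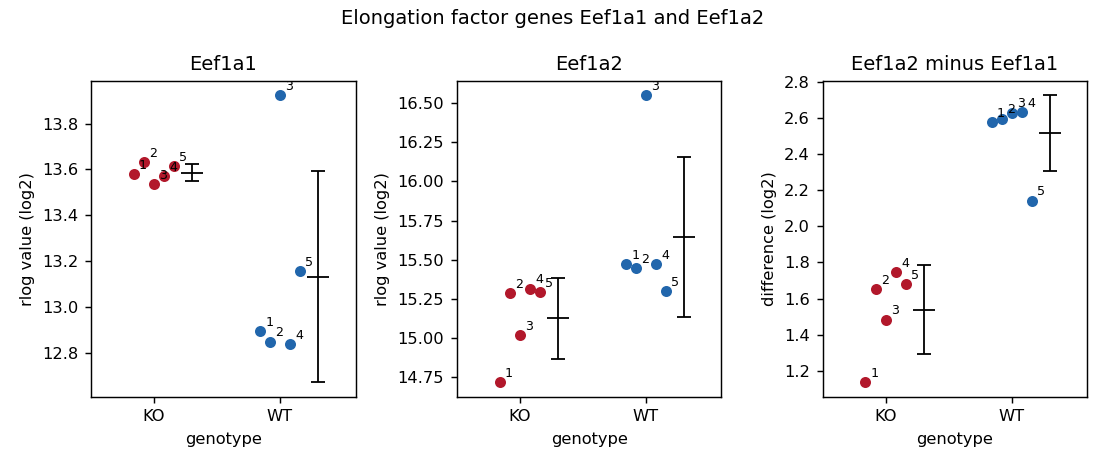
Values of Eef1a1, Eef1a2 (rlog, log2) and their difference in the 5 desmin knock-out (KO) and 5 wild-type (WT) mice, numbered by mouse, with the mean and SD beside each group. The difference is at most 1.75 in knock-out and at least 2.14 in wild-type mice.

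Growth signaling controls how many ribosomes a muscle makes and uses, and 28 of 30 listed genes were tested. In desmin knock-out mice 4 (14.3%) were lower and 1 (3.57%) higher by limma, against 5.99% and 7.7% of all tested genes. The median difference was -0.13, or -0.08 without wild-type mouse 3. Rps6ka1, which encodes a kinase of the ERK pathway, was at 6.56 to 7.02 in desmin knock-out and 7.43 to 8.34 in wild-type mice, a difference of -1.06 (adjusted p of 0.000916). The growth kinase gene Akt1 differed by -0.61 (adjusted p of 0.0151), and Eef2k, whose kinase slows elongation, by -0.36 (adjusted p of 0.0165). Eif4ebp2, a cap-binding inhibitor that was named after its values were seen, differed by -0.54 (adjusted p of 0.0385). Sesn3, which encodes a restraint on mTORC1, was at 9.70 or more in all desmin knock-out and at 9.49 or less in all wild-type mice, a difference of 0.57 (adjusted p of 0.0032). When wild-type mouse 3 was left out, the differences were -1.01 for Rps6ka1, -0.45 for Akt1, -0.33 for Eef2k, -0.38 for Eif4ebp2 and 0.59 for Sesn3, and all 5 were still called by limma. Larp1, Akt2 (-0.27) and Eif4ebp1 (0.34) were called as well in that fit, the last 2 named after their values were seen. The adjusted p of Rps6ka1 was at most 0.0212 over the alternatives, whereas with mice centred on the median of the members it reached 0.102 for Akt1, 0.560 for Eef2k and 0.083 for Sesn3. Myc, a driver of ribosome biogenesis genes, differed by 0.29 (adjusted p of 0.437 by limma), was lowest in wild-type mouse 3 with 5.97, and differed by 0.07 without that mouse. Larp1, which binds messages with a pyrimidine tract, differed by -0.24 with all mice and by -0.34 without wild-type mouse 3 (adjusted p of 0.176 and 0.0022 by limma).

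Markers of other cells of the muscle were set beside these values. Of all tested genes 7.7% were called higher and 5.99% lower with all mice. Of 8 fast and general muscle fiber markers 1 was higher and 1 lower in desmin knock-out mice by limma. Of 7 fibroblast markers 4 were higher and of 6 endothelial markers 4 were lower, or 3 and 3 without wild-type mouse 3, and 0 of 8 macrophage markers differed in either direction, with 0 at an unadjusted p under 0.05. The summed level of the fibroblast markers was 13.90 to 14.50 (log2) in desmin knock-out and 13.45 to 14.39 in wild-type mice, where 13.45 was that of mouse 3. The endothelial sum was 11.68 to 12.17 and 12.17 to 12.57, and the macrophage sum 11.31 to 11.82 and 11.38 to 11.70. Of 6 slow fiber markers 2 were higher and 1 lower. Of 6 satellite cell markers 2 were higher and 1 lower as well, and of 5 erythroid markers 2 were lower. With wild-type mouse 3 left out, 2 muscle fiber markers and 3 slow fiber markers were higher, 3 erythroid markers were lower, and the other counts of these lists were as with all mice. None of 5 adipocyte and 5 Schwann cell markers was called by limma, with 0 at an unadjusted p under 0.05 in both. In a whole muscle, fewer cells of a type and less RNA per cell cannot be told apart, and the part of these cells in the balance of Rpl3 and Rpl3l was not tested.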

How the data were processed

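RNA-seq was done on the gastrocnemius (by the paper's discussion, gastrocnemius and plantaris) of 5 desmin knock-out and 5 wild-type mice. Total RNA (Trizol and a column kit) went into a stranded mRNA library. The submitters' processing notes name cutadapt 2.5, STAR 2.5.4a, Subread 1.6.1 with featureCounts, and DESeq2 on GRCm38. The annotation release, the strand setting, the treatment of reads with several matches and the settings of the transformation are not given in the sources used here. The authors deposited the rlog values of DESeq2, which are log2 values that adjust for library size and pull each gene in towards its own mean. Counts were not used here, so the depth of each mouse and its counting error are unknown, and the test runs on log2 values instead of the counts that the study tested. Shrinkage makes differences smaller, most for low genes.

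Symbols, positions and reference transcripts came from GENCODE M21 (54165 of 54232 identifiers matched). The test was two-sided limma-trend (limma 3.58.1, R 4.3.3) on the 14289 genes whose mean reached log2(10), with Benjamini-Hochberg adjustment over them. The script was tested on simulated data. Differences within pairs of genes were tested by exact permutation over mice. Nothing in the labels says more of how the mice were kept apart, so p-values measure the spread between these samples. Coding sequences of Rpl3 and Rpl3l, taken as the longest open reading frame, were aligned with Biopython 1.88. Windows of 50 bases were looked up in all transcripts of GENCODE M21.

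The members, the lists and the tests were chosen with earlier results of these data known. The text names Rpl3, Rpl3l and the stalk genes, up to 10 members called in each direction, the 3 members with the highest and the 3 with the lowest mean, those with the highest and the lowest difference, the members on chromosome 1, ribosomal protein genes outside the rule, up to 4 called genes of each list, and Myc, Larp1, Ubtf, Eef1a1, Eef1a2 and Des. A few of the genes that these rules take are not reported here by name. Alternatives were each mouse left out in turn, sample weights, quantile normalization, median centring, a limit of log2(50) or none, a prior variance without trend, the replicate number as a block, Y-linked transcripts as a covariate, removal of trends on GC content and length, and an adjusted p under 0.01. Centring on the median of the members was added after seeing the data.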

Additional observations from a re-analysis of the deposited data

Results flagged for a closer look

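In 15 of 70 groups of 5 values looked at, 1 mouse lay farther from the others than the 95% limit of Dixon's test allows. In separate groups chance gives about 1 in 20, or 3.5. These groups reuse the same mice and hold genes that move together, so the counts are a description and not a test. The share over all tested genes was not computed. In 10 of the 15 the mouse set apart was wild-type mouse 3. Among members, its values were 15.88 for Rplp0, 15.46 for Rpl4 and 14.69 for Rpl7, all above the other wild-type mice. Outside the members it was highest with 10.32 for Tcof1, 11.66 for Akt1, 16.55 for Eef1a2, 14.24 for Rps3a1, 15.06 for Rack1 and 11.09 for Rpl7l1, and lowest with 11.64 for Larp1. Over all 75 members, such a wild-type mouse was found in 11, and it was mouse 3 in all 11. Among desmin knock-out mice such a mouse was found in 15 members.

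Desmin knock-out mouse 1 was set apart downwards in Rps14 with 13.28, in Rps3a1 with 13.23 and in the median level of the members with 12.60. Wild-type mouse 5 was set apart in both paralog balances, with 3.40 for Rpl3l minus Rpl3 and 2.14 for Eef1a2 minus Eef1a1, each on the side of the desmin knock-out mice.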

How the results depend on the processing

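The median difference of the members (-0.16) ranged from -0.23 to 0.015 when 1 mouse was left out, and was -0.20 with median centring, -0.07 with quantile normalization, -0.14 without GC and length trends, 0.05 with Y-linked transcripts as a covariate and 0.11 with sample weights, so that its sign turned under some. No member was lower under any alternative. The number of higher members was 0, except for 8 with sample weights and 1 without wild-type mouse 3, with leave-one-out counts from 0 to 1. Rpl3 (0.13 with all mice) was called with sample weights (0.41) and without wild-type mouse 3 (0.31, the upper end of leave-one-out values that begin at 0.049), and under none of the other 20 alternatives. Rpl3l was called under none of 22. Rpl3l minus Rpl3, a pair chosen with earlier results known, passed the exact permutation test under all 15 alternatives run, which reuse the same mice. The limit on the mean value, the prior variance and the threshold do not enter it, and its fit with the replicate block was not run.

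With sample weights 10 biogenesis, 8 translation, 11 growth and 9 mitochondrial ribosomal protein genes were called, against 1, 2, 5 and 0, while of all tested genes 14.6% were called higher and 14.9% lower in that fit. At an adjusted p under 0.01 the counts were 0 biogenesis, 0 translation and 2 growth genes. Leaving out 1 mouse gave 1 to 3 biogenesis, 0 to 4 translation, 3 to 8 growth and 0 to 1 mitochondrial ribosomal protein genes. The upper ends came without wild-type mouse 3, the 3 growth genes without desmin knock-out mouse 4, and the mitochondrial gene, Mrpl33, without wild-type mouse 3 or 4. Without GC and length trends 2 biogenesis and 3 mitochondrial genes were called, with Y-linked transcripts as a covariate 4 translation genes and 1 mitochondrial gene, with quantile normalization 1 translation gene and 1 mitochondrial gene, and without a limit on the mean value 1 translation gene. Centred on the members' median, with and without wild-type mouse 3, 0 biogenesis, 1 translation and 1 growth gene were called. The causes were not tested.

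The replicate numbers are shared between the genotypes, and the labels do not say whether they pair the mice. The paper calls the wild-type mice littermates and gives no pairs. Correlations of 5 numbers cannot exclude a pairing. Mice of the same number had correlations of their deviations from 0.07 down to -0.22, and none correlated best with its own number. With the replicate number as a block, 0 members and 0 translation genes were called, and it changed no call of Rpl3 or Rpl3l.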
